A study of Rattus norvegicus with 12 samples.

Results

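The genes described here are the parathyroid hormone receptor Pth1r, its ligand Pthlh, the bone morphogenetic protein ligands Bmp2 and Bmp4, their receptors Bmpr1a and Bmpr2, and the homeobox genes Msx1 and Msx2, which make up 8 of the 16511 genes in the count table. They were selected on the diet contrast itself, because Pth1r was higher with the high fat butter diet before adjustment, and the other 7 are its pathway partners. The diet values of all 8 are therefore a description and carry no test. RNA was sequenced from whole mammary glands of rats at PND21 (postnatal day 21), with 1 gland per litter and 6 glands per diet. Prenatal exposure was to the control diet (CTL, named AIN in the design text) or the high fat butter diet (HFB), starting on gestation day 1. The design text names PND 23 as the end of treatment and also states that newborns had AIN from day 0, so the exposure window cannot be fixed from it, and the labels used here give no strain or sex. Libraries held 2320267 to 2760871 counts in HFB (median 2660268) and 2403464 to 2944680 in CTL (median 2537564).

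Pthlh encodes parathyroid hormone-related protein, which mammary epithelial cells secrete and which acts on Pth1r in the neighbouring mesenchyme. In the embryonic bud this signal makes the mesenchyme mammary-specific, in part by raising its response to bone morphogenetic proteins through Bmpr1a, with Msx2 among the genes that respond. Bone morphogenetic proteins bind a type I receptor such as Bmpr1a together with the type II receptor Bmpr2, and the signal passes through Smad proteins to targets that include Msx and Id genes.

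A pair of libraries, HFB 6 and CTL 14, stood apart in tissue makeup. The 6 adipocyte markers summed to 17518 CPM (a gene's counts divided by the TMM-scaled library total, times 1e+06) in HFB 6 and 14545 CPM in CTL 14, against 30601 to 38849 CPM in the other 10 libraries. Fabp4 was the most abundant adipocyte marker (mean 19562 CPM), and none of the 6 was at 0 in any library. The 6 lymphoid markers measured summed to 473 CPM in HFB 6 and 494 CPM in CTL 14, and to between 5.06 and 112 CPM elsewhere. Ltb was the most abundant of them (mean 38.2 CPM), and the other 5, Cd3e and Ms4a1 among them, were at 0 counts in at least 1 library. The 5 smooth muscle and mural markers were also highest in this pair (1002 and 1114 CPM, with 132 to 398 CPM elsewhere), led by Tagln, and the 6 fibroblast markers, led by Col3a1, were lowest there (24317 and 23057 CPM, with 32634 to 53007 CPM elsewhere). The endothelial sum was also highest in this pair (368 and 393 CPM, at most 215 CPM elsewhere), as was the epithelial sum (654 and 635 CPM, at most 601 CPM elsewhere). By the mean log2 CPM of the endothelial markers, however, only CTL 14 stood highest (6.16). HFB 6 (5.35) was below CTL 9 (5.75), CTL 11 (5.68) and HFB 4 (5.61) by that measure. As 1 of the libraries belongs to each diet, the members' diet differences and relations are given with and without both where they rest on them, a comparison chosen after seeing the data. All 6 epithelial markers measured were present in every library, with Krt8 the most abundant (mean 113 CPM). Between diets, the 4 red blood cell markers, led by Hbb and with none at 0, had a median sum of 18750 CPM in HFB (6254 to 55031) and 8219 CPM in CTL (5817 to 34489), with overlapping ranges, and their part in the members' diet differences was not tested.

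Of the 8 genes, 5 passed the filter on low counts (Pth1r, Bmp4, Bmpr1a, Bmpr2 and Msx1) and 3 did not (Pthlh, Bmp2 and Msx2). Across all genes tested with edgeR's quasi-likelihood test, 0 of 9382 had an adjusted p under 0.05 (0%), and 220 had an unadjusted p under 0.05 (2.34%). DESeq2 and limma-voom with library quality weights, which down-weight divergent libraries, also gave 0 adjusted calls, with 271 and 613 unadjusted. Pth1r was the only member among the 220, which is the value that chose the list. The diets did not overlap in 10 of the 9382 genes (0.107%), and no member was among them.

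Pthlh, the ligand (gene ID 24695), was close to the limit of detection, with 69 counts over the 12 libraries. Its counts were 3 at the lowest, 4.5 at the median and 13 at the highest in HFB, and 1, 5 and 10 in CTL. The diets overlapped almost completely: over the pooled libraries of a diet the level, before TMM scaling, was 2.28 CPM in HFB and 2.14 CPM in CTL. The highest value was in HFB 6 (5.21 CPM), and CTL 14 had the highest value of its diet (3.52 CPM). With a detection floor of 3 counts per library, 2 CTL libraries fell below it, so no fold change is given.

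Pth1r, the receptor for parathyroid hormone and for the Pthlh product (gene ID 56813), was measured with 95 to 233 counts per library. Its level was 52.3 CPM at the lowest, 68.1 at the median and 90.1 at the highest in HFB, and 39.1, 46.6 and 64.4 CPM in CTL. The highest value was in HFB 5 and the lowest in CTL 14. The diets overlapped through HFB 3 (52.3 CPM) on one side and CTL 7 and CTL 8 (53.5 and 64.4 CPM) on the other, while 5 of the 6 HFB libraries were above every CTL library. The means were 69.1 ± 12.2 CPM (SD, n = 6) in HFB and 48.6 ± 9.23 CPM (SD, n = 6) in CTL, a log2 fold change of 0.51 (SE 0.16), or 1.42-fold. Without HFB 6 and CTL 14 the log2 fold change was 0.45 (SE 0.16). In bulk tissue, a higher share of cells with the receptor and more receptor RNA per cell cannot be told apart.

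The RefSeq promoter table (GRCr8) held entries for 6 of the 8 genes, and the windows of Pth1r and Bmpr1a are shown because Pth1r chose the list and Bmpr1a is the member that varied most closely with a marker score. Each is the 250 bases before the transcript start used by the table, on the minus strand, at chr8:119595572-119595821 for Pth1r and chr16:9786862-9787111 for Bmpr1a. Both strands were searched for GGGCGG (the GC box), CCAAT and TATAAA, and capitals mark the matches, which may overlap one another.
Pth1r: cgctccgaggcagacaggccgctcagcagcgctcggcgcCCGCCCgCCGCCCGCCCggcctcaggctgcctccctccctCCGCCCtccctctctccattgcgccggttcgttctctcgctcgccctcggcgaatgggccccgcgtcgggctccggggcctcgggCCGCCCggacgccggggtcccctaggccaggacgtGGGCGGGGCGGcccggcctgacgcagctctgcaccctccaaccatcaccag
Bmpr1a: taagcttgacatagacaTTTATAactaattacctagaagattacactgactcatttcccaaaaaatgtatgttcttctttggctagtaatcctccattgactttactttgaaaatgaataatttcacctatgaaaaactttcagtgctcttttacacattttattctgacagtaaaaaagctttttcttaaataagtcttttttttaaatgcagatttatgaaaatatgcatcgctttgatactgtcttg
The Pth1r window was 77.6% G and C with 33 CpG dinucleotides and 7 matches to the GC box. That transcript start lies 1834 bases inside the gene's outermost start in the same annotation, so longer transcripts may span the window. The Bmpr1a window was 28.4% G and C with 1 CpG, and its only match was a TATAAA on the opposite strand. Among 33469 promoter windows of this length, 30.5% held the GC box, 34.0% CCAAT and 12.9% TATAAA, and the median was 51.2% G and C. A homeobox core and a cyclic AMP element were also searched for. None of the 6 members' windows held either, against 7.31% and 1.59% of all windows. The windows of Msx1 and Msx2 held 2 and 3 CCAAT matches with 1 GC box each, and those of Bmp4 and Bmpr2 held 3 and 2 GC boxes and no CCAAT, with transcript starts 11212 and 874 bases inside the outermost start of the gene. A match is a description of letters, and no protein binding was measured here.

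Bmp2, a bone morphogenetic protein ligand (gene ID 29373), had 31 counts in all and 0 to 5 per library. HFB 3 and HFB 5 were at 0, and no fold change is given for it. Of the 6 libraries per diet, 2 in HFB and 4 in CTL reached the floor of 3 counts. The pooled level, before TMM scaling, was 0.823 CPM in HFB and 1.17 CPM in CTL, a difference not resolved at this depth.

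Bmp4, the other ligand (gene ID 25296), which stromal and epithelial cells of many organs secrete, was measured with 15 to 43 counts per library. Its level was 6.17, 11.3 and 17.2 CPM (lowest, median, highest) in HFB and 6.64, 9.18 and 15.2 CPM in CTL. The ranges overlapped almost in full, with HFB 6 the highest and HFB 1 the lowest of all libraries. The log2 fold change was 0.24 (SE 0.28), and 0.10 (SE 0.29) without HFB 6 and CTL 14. Leaving out 1 library moved it between 0.10 (without HFB 6) and 0.40 (without CTL 9).

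Bmpr1a, the type I receptor (gene ID 81507), varied 8.42-fold between the lowest and highest library, where Pth1r varied 2.31-fold. Its level was 8.02, 41.0 and 50.1 CPM in HFB and 13.4, 42.4 and 67.5 CPM in CTL. The low values came from both diets: HFB 6 and CTL 14 had the lowest levels, and HFB 5 (24.0 CPM) was next, while the other 9 libraries lay between 34.8 and 67.5 CPM. The log2 fold change was -0.24 (SE 0.40). It was -0.03 without either HFB 6 or CTL 10 and -0.41 without CTL 14, and with lymphoid and skeletal muscle scores as covariates it was 0.00 (SE 0.22), so no direction is given. Without both HFB 6 and CTL 14 it was -0.21 (SE 0.21).

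Bmpr2, the type II receptor that pairs with it (gene ID 140590), was measured with 10 to 40 counts per library. Its level was 4.01, 11.3 and 13.6 CPM in HFB and 10.3, 11.3 and 14.8 CPM in CTL. The medians were nearly equal, and HFB 6 was far below the remaining libraries. The log2 fold change of -0.22 (SE 0.26) became -0.05 (SE 0.19) without HFB 6 and -0.08 (SE 0.19) without HFB 6 and CTL 14, and reached -0.31 without HFB 4. Bmpr1a and Bmpr2, centred on their diet means, had a Pearson r of 0.77 over 12 libraries, given as a description, and 0.33 without HFB 6 and CTL 14. Both receptors were lowest in HFB 6, whereas in CTL 14 Bmpr1a was low and Bmpr2 lay within the CTL range of the other libraries.

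Msx1, a homeobox transcription factor gene that responds to bone morphogenetic proteins (gene ID 81710), was low, with 5 to 20 counts per library. Its level was 2.14, 4.69 and 7.41 CPM in HFB and 3.34, 6.33 and 6.74 CPM in CTL. HFB libraries fell at both ends, with 3 below every CTL library and 1 above. The log2 fold change was -0.29 (SE 0.34), within the spread of the libraries. It ranged from -0.46 without HFB 3 to -0.14 without HFB 2 when 1 library was left out, and was -0.12 (SE 0.34) without HFB 6 and CTL 14.

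Msx2, its close relative (gene ID 25483), had 78 counts in all and did not pass the filter. It ranged from 1 to 17 counts in HFB and from 3 to 10 in CTL, with medians of 5.5 and 6. HFB 4 was the highest library and HFB 1 the lowest, and the pooled level, before TMM scaling, was 2.60 CPM in HFB and 2.40 CPM in CTL.

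**Figure D1:**
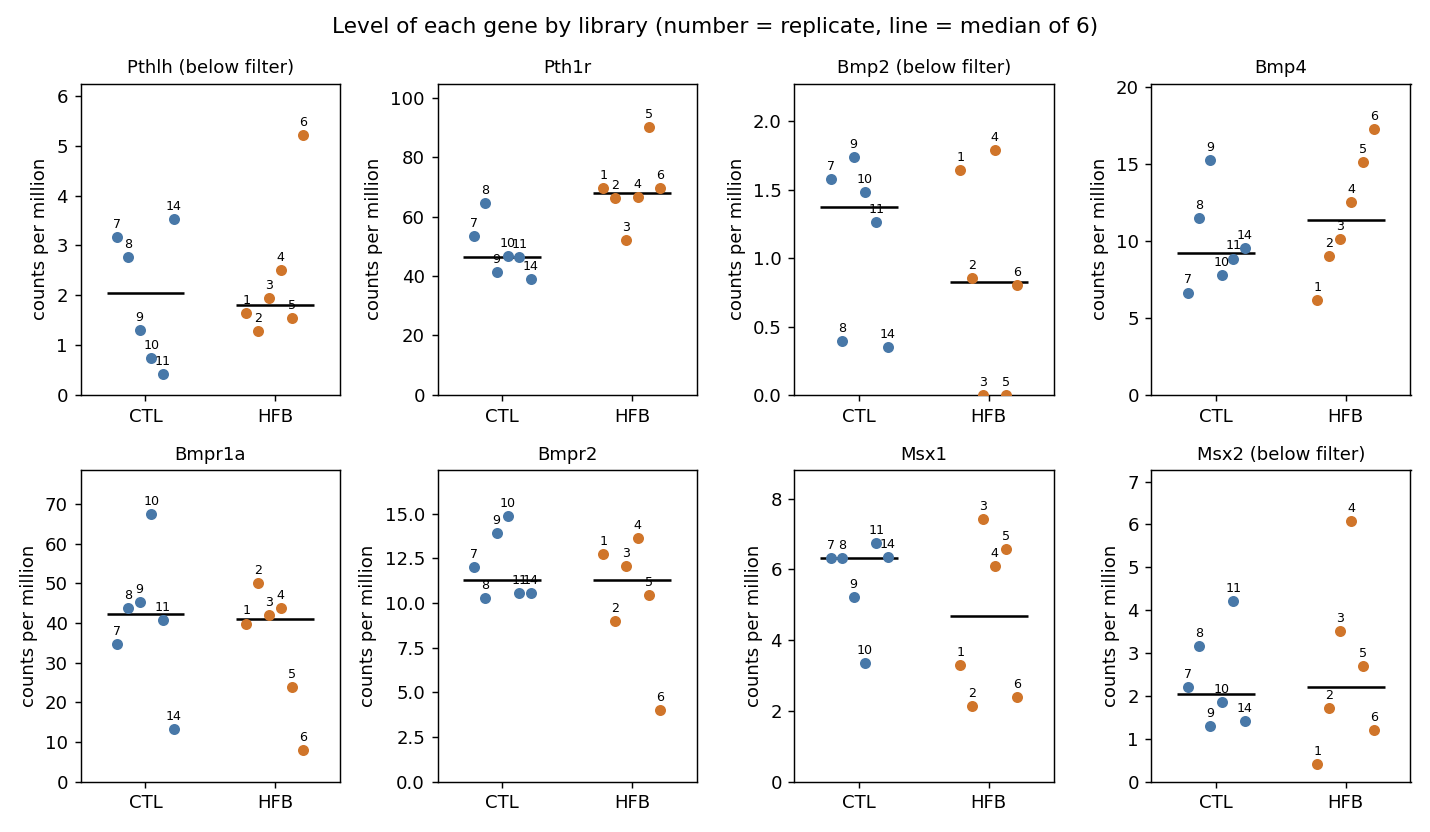
Level of each of the 8 genes in CPM (vertical axis, linear from 0) in the 6 CTL and 6 HFB libraries, with the replicate number at each point and a line at the median. The diets overlap in every panel, Pth1r has 5 HFB libraries above all CTL libraries, and Bmpr1a is lowest in HFB 6 and CTL 14.

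The members were next set beside markers of 8 tissue parts, a relation that the choice of members did not use. Each marker score is the mean log2 CPM of its list, member and score were centred on their diet means, and p-values come from 100000 permutations within diets, two-sided, adjusted over the 40 pairs of 5 members and 8 scores. Of the 40 relations, 1 passed by Pearson's r and 0 by Spearman's rho. It joined Bmpr1a to the adipocyte score, with r = 0.96 (permutation p = 9e-05, adjusted p = 0.0036) and rho = 0.84 (permutation p = 0.00136, adjusted p = 0.0544). The same sign held without HFB 6 and CTL 14, the libraries farthest from the median score (r = 0.81, rho = 0.72, permutation p = 0.00821), but the adjusted p was then 0.328 when the 2 farthest libraries were left out for each score and 0.164 when this pair was left out throughout, so the call rests on these libraries. Bmpr1a ranked 111 of 9382 genes by this r, and 669 genes (7.13%) had an r over 0.9. So many genes varied with the adipocyte score in these glands that the relation is not particular to Bmpr1a. The part of tissue makeup in this relation was not tested.

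Bmpr1a varied in the opposite direction to the smooth muscle and mural score (r = -0.89, permutation p = 0.00468, adjusted p = 0.0936, rho = -0.59), a relation that missed the threshold and fell to r = -0.39 without HFB 6 and CTL 14. Its r with the fibroblast score was 0.77 with all libraries and -0.49 without that pair, and with the lymphoid score -0.70 and 0.27, so both turned direction. For Bmpr2 and the adipocyte score, r was 0.69 (adjusted p = 0.252 by permutation) and -0.16 without the pair. Its relation with the smallest p was to the fibroblast score (r = 0.63, rho = 0.53, adjusted p = 0.111 by permutation), and r was 0.56 without the pair. Pth1r had its largest r with the endothelial score (r = -0.70, rho = -0.67, adjusted p = 0.148 by permutation), and -0.42 without CTL 14 and HFB 5, the libraries farthest from the median of that score, or -0.65 (rho -0.59) without HFB 6 and CTL 14. The 4 endothelial markers measured, led by Pecam1, summed to 130 to 393 CPM. With the adipocyte score Pth1r had an r of 0.16, which turned to -0.39 without HFB 6 and CTL 14, and with the epithelial score 0.32, which became 0.53. Without HFB 1 and HFB 3, the libraries farthest from the median epithelial score, its r with that score was 0.20 (rho 0.02). Bmp4 and Msx1 had their largest r with the skeletal muscle score (0.63 and 0.53), with adjusted p of 0.21 and 0.316 by permutation. Without CTL 10 and HFB 1, the libraries farthest from the median of that score, these r were 0.45 and 0.34. The 6 skeletal muscle markers, led by Acta1, summed to 150 to 4602 CPM, with none at 0. Without HFB 6 and CTL 14 the r of Msx1 with that score was 0.83 and with the lymphoid score -0.77, neither past the adjusted threshold.

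**Figure D2:**
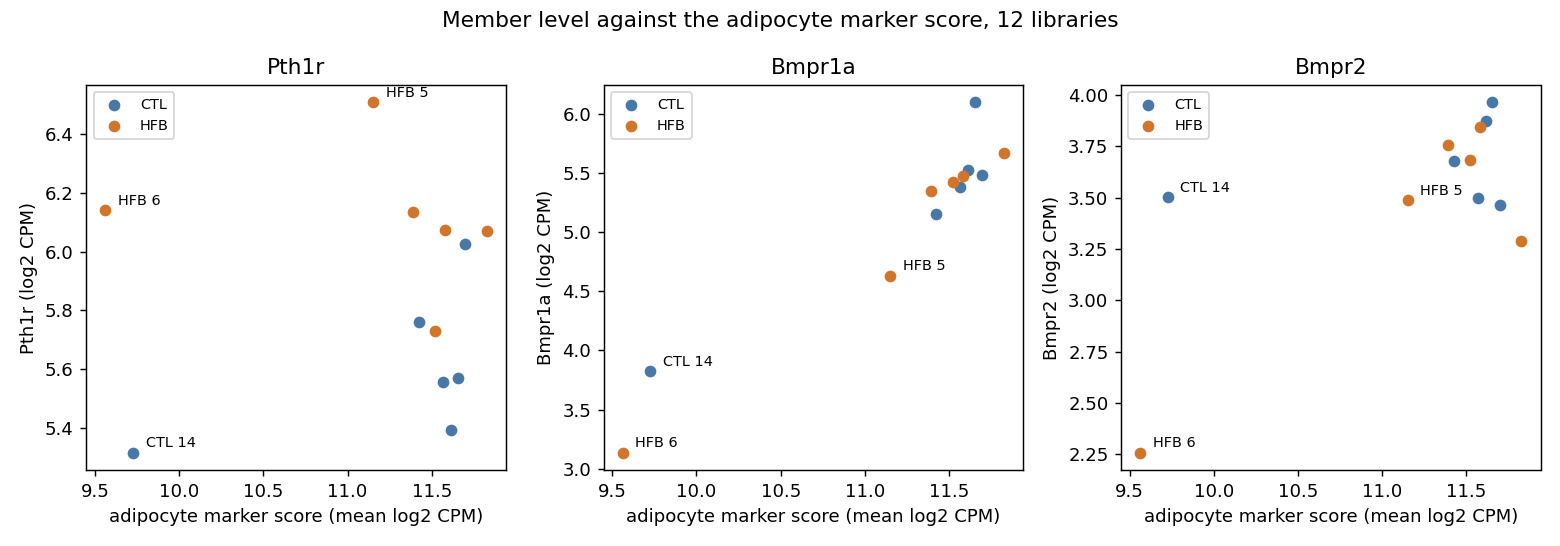
Log2 CPM of Pth1r, Bmpr1a and Bmpr2 (vertical axes) against the adipocyte marker score (horizontal axis, mean log2 CPM of 6 markers), with 1 point per library, coloured by diet. Bmpr1a is low in HFB 6, CTL 14 and HFB 5, the 3 libraries with the lowest scores, while Pth1r shows no such order and Bmpr2 is low in HFB 6 alone.

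**Figure D3:**
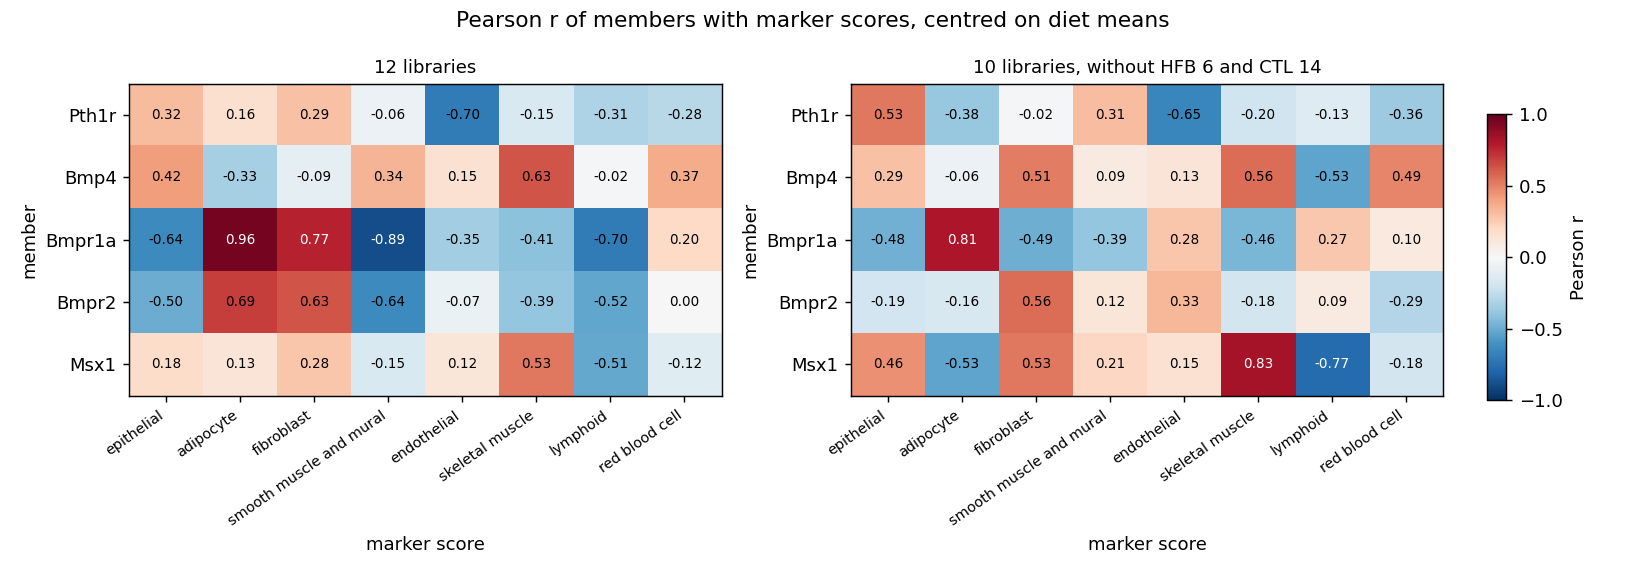
Pearson r of the 5 members that passed the filter (rows) with 8 marker scores (columns), centred on diet means, over 12 libraries (left) and over 10, without HFB 6 and CTL 14 (right). Bmpr1a with the adipocyte score is 0.96 and 0.81, whereas its r with the fibroblast and lymphoid scores turns direction.

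The genes whose pattern was most like a member's, by centred Pearson r over 12 libraries, differed between members. They were picked as the highest r among the 9382 genes tested, so their r are high by this choice. They are a description with no test. For Pth1r they were Podxl2 (0.89), Tspan11 (0.88) and Tpsab1, which encodes a mast cell tryptase (0.85). Their r was 0.87, 0.87 and 0.85 without HFB 6 and CTL 14. For Bmpr1a they were Ehd2, a membrane-bending ATPase of caveolae (0.98), Itsn1 (0.98) and Dbt, a subunit of the branched-chain keto acid dehydrogenase (0.98). Those of Bmpr2 were Eri2 (0.97), Gaa (0.93) and Lfng (0.93), of which Gaa dropped to 0.66 without that pair. Those of Bmp4 were Abcb6 (0.89), Spata7 (0.88) and Spink8 (0.87), and those of Msx1 were Mblac1 (0.92), C13h1orf53 (0.90) and Phkg1 (0.88). Without HFB 6 and CTL 14, only 1 of these 15 genes was still among the 3 most like its member, and by Spearman's rho 7 of the 15 were. Among the 5 members themselves, Pth1r had an r of 0.00 with Bmpr1a (rho -0.25) over 12 libraries and -0.54 without HFB 6 and CTL 14, and 0.01 and 0.08 with Msx1.

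The other genes of the pathways came from 9 role lists with 89 genes, of which 76 were in the table, 41 passed the filter and 7 were at 0 counts throughout (Pth, Pth2, Pth2r, Gdf2, Gdf6, Smad9 and Nbl1). None of the 41 passed edgeR's adjusted threshold in either direction, and 2 had an unadjusted p under 0.05, both lower in HFB. Among all 9382 genes, 220 (2.34%) had such a p, 122 of them higher and 98 lower in HFB. The fold change was below 0 in 33 of the 41 and in 4688 of all 9382 genes, and the median log2 fold change was -0.15 against 0.00 for all genes. These are counts only, with no test of the lists.

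Around the Pth1r receptor, Ramp2, a coreceptor of the related receptor Calcrl, was at 48.7, 58.0 and 280 CPM (lowest, median, highest) in HFB and 39.7, 56.1 and 162 CPM in CTL. Its medians were nearly equal, and its log2 fold change of 0.45 (SE 0.48) was within the spread of the libraries. Calcrl had a log2 fold change of -0.33 (SE 0.54). Among 13 measured genes that signal below Pth1r, most of them in its cyclic AMP arm, 9 were tested, with a median log2 fold change of -0.11. Gnas, the G protein subunit of the cyclic AMP arm, had 78 counts over the 12 libraries and did not pass the filter, so the median leaves it out. Adcy6, an adenylyl cyclase, had -0.32 (SE 0.19), Prkar2b, a regulatory subunit of protein kinase A, -0.04 (SE 0.36), and Gnaq, the G protein subunit of its phospholipase C arm, -0.55 (SE 0.48). Of the targets in bone and breast, only Tnfrsf11b, the decoy receptor for RANK ligand, was tested, with -0.29 (SE 0.46).

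Among the other bone morphogenetic protein ligands, Bmp7 had a log2 fold change of -0.36 (SE 0.31) and Gdf10 -0.20 (SE 0.33), next to 0.24 for Bmp4. Of the receptors, the type I receptors Acvr1 and Acvrl1 had -0.74 (SE 0.61) and 0.12 (SE 0.29), and the coreceptor Hjv 0.15 (SE 0.77). Smad1, which carries the signal of Bmpr1a and Bmpr2 to the nucleus, was at 40.2 ± 3.74 CPM in HFB and 41.1 ± 3.57 CPM in CTL (SD, n = 6). Smad5 had a log2 fold change of -0.40 (SE 0.44), and the inhibitory Smad7 -0.14 (SE 0.28).

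Among the secreted antagonists and binding proteins of these ligands, 9 were tested, with a median log2 fold change of -0.12, and Fstl1 and Twsg1 had -0.12 (SE 0.24) and -0.13 (SE 0.24). Among target genes beside Msx1 and Msx2, Id1 had 0.32 (SE 0.20), Id3 -0.33 (SE 0.20) and Atoh8 0.52 (SE 0.45), none past the adjusted threshold. Of the 6 targets tested, 4 had a fold change below 0. From the mammary bud and mesenchyme list, Gata3, a luminal lineage transcription factor, had -0.91 (SE 0.36, adjusted p = 0.999 by edgeR) and Tbx15 -0.38 (SE 0.47). Gata3 was at 1.65, 3.49 and 7.16 CPM in HFB and 3.91, 7.79 and 10.1 CPM in CTL (lowest, median, highest), so its ranges overlapped, and it was among the genes with an unadjusted p under 0.05. The epithelial markers also had a lower median sum in HFB, 276 CPM (114 to 654) against 416 CPM (180 to 635) in CTL, with overlapping ranges, and their part in the Gata3 value was not tested.

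**Figure D4:**
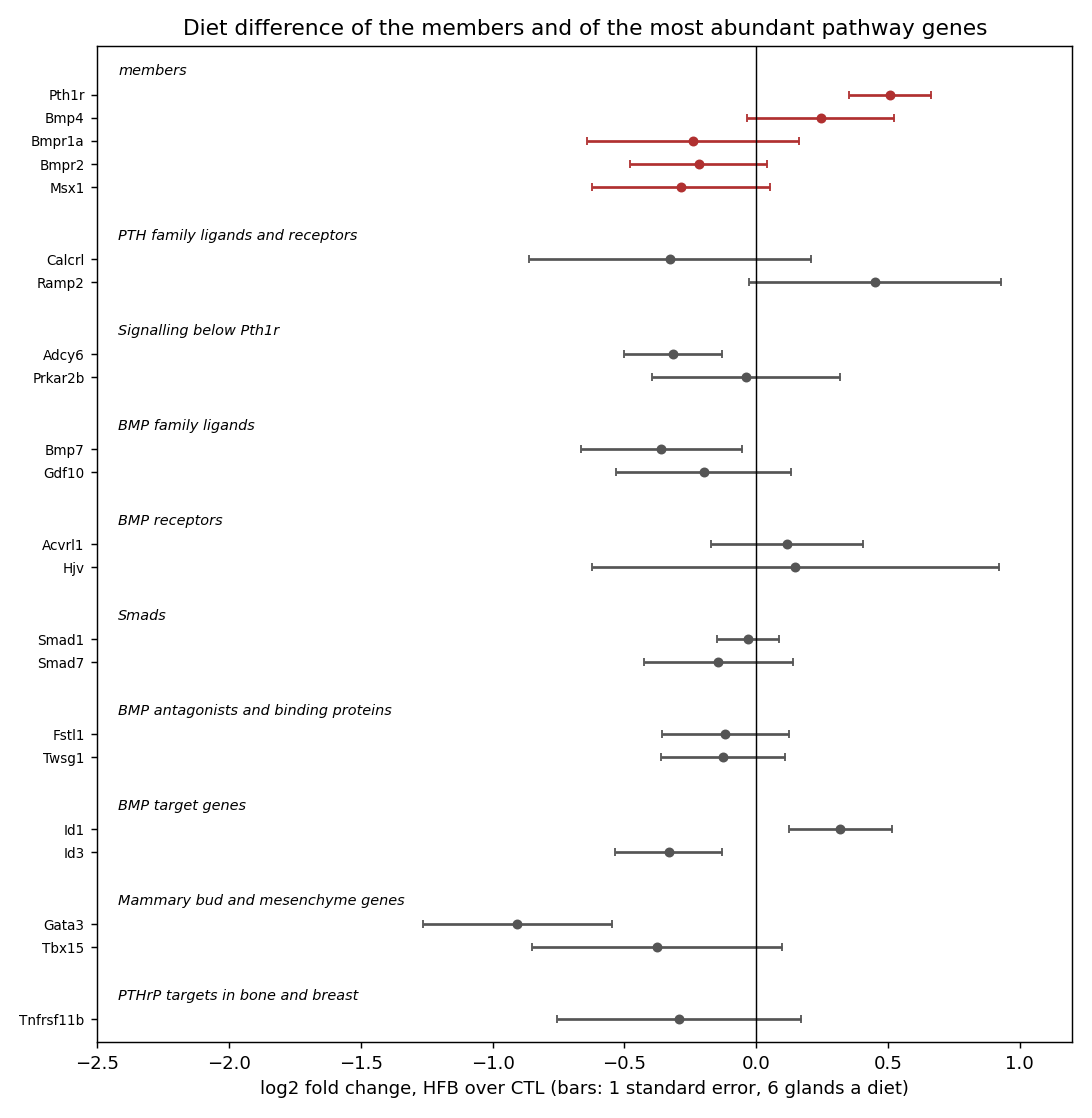
Log2 fold change of HFB over CTL (horizontal axis) for the 5 members that passed the filter (red) and for up to 2 genes with the highest mean CPM in each of the 9 role lists (grey), with bars of 1 standard error from edgeR over 6 glands per diet. Pth1r, by which the list was chosen, lies at 0.51, and Gata3 lies farthest below 0.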

How the data were processed

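The deposited values were raw counts per gene, 12 libraries of whole mammary gland. The submitters' processing notes name bcl2fastq, CASAVA 1.8, TopHat, DESeq and the rn4 build, and the counter, annotation and strand setting are not given in the sources used here. Genes were identified by their Entrez IDs, with 16351 of 16511 matched to a symbol. Counts were filtered by filterByExpr, scaled by TMM and tested with edgeR 4.0.16 (R 4.3.3) using Benjamini-Hochberg adjustment over 9382 genes, with DESeq2 1.42.0 and limma-voom with quality weights (limma 3.58.1) as alternatives. Levels are CPM and correlations use log2 CPM with a prior count of 2. Relations were tested in Python 3.11.15 with scipy 1.17.1, and the fitting and correlation code was tested on simulated data. Named genes were the 8 members, the 3 genes most like each tested member, genes of the role lists past the adjusted threshold and, per list, the 2 genes with the highest mean CPM and the gene with the largest absolute fold change. The members and lists were chosen with earlier results of these data known. Floors cover counting error only. A gene that the naming rule selects is not reported here.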

Additional observations from a re-analysis of the deposited data

Results flagged for a closer look

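Of 34 groups of 6 libraries examined, 8 held a library far from the other 5, where chance gives about 1 in 20 groups (1.7 of 34). The groups share the same 12 libraries and are not independent, and HFB 6 and CTL 14 recur among the flags, so this number is only a guide. HFB 6 was low for Bmpr2 (4.01 CPM) and for the adipocyte marker score (9.56, next 11.15, mean log2 CPM). CTL 14 was low for the adipocyte score (9.73, next 11.42) and the fibroblast score (10.35, next 11.29) and high for the lymphoid score (5.67, next 1.96). The red blood cell score of CTL 9 was high (10.31, next 8.62). Total counts were low in HFB 1 (2320267) and high in CTL 7 (2944680). The cause of these differences was not tested.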

How the results depend on the processing

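No paired analysis was possible because no replicate number occurs in both diets. Across 20 other settings (scaling, tool, filter, covariates, each library left out, and HFB 6 with CTL 14 left out, the last chosen after seeing the data), 0 genes passed the adjusted threshold, and 0 pathway genes did. Against 220 unadjusted calls, there were 135 without HFB 5, 137 without CTL 11, 141 without CTL 7 or CTL 10, 378 without HFB 1, 389 without HFB 4, 587 without CTL 14, 431 without HFB 6 and CTL 14, 439 with the covariates and 613 with limma-voom and library quality weights, which changes the tool and the weights together. Of the diet differences, Pth1r stayed between 0.37 and 0.61 (log2) in all 20, and Bmp4, Bmpr2 and Msx1 kept their sign in every setting that tested them. Bmpr1a kept its sign in 19 of 20. These settings refit the same libraries, and Pth1r was chosen on this contrast, so a kept sign adds no support. The fold changes of Bmp4, Bmpr1a, Bmpr2 and Msx1 were smaller than their standard errors in the main fit. Msx1 could not be tested under the stricter filter (10 counts or more per library). Relations past the adjusted threshold fell from 1 to 0 without the 2 farthest libraries of each score and to 0 without HFB 6 and CTL 14. Of the 15 genes most like a member, 7 were shared with Spearman's rho and 1 without that pair, and the cause was not tested. Depth limits Pthlh, Bmp2 and Msx2, whose counts lie near the floor of 3 counts per library.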
